A study of Mus musculus with 8 samples.

Results

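LPS-treated BV-2 microglia were compared with control BV-2 cells by RNA-Seq. The comparison rests on 4 of the 8 libraries of the series, namely every library that the labels assign to the LPS group (2 libraries) or to the control group (2 libraries), so no measured value entered the choice. BV-2 is an immortalized mouse microglial line, and as a single line it stands for 1 source of cells, not for microglia of an animal. Control cells received solvent without LPS. LPS cells received lipopolysaccharide of an Escherichia coli strain at 100 ng/mL for 20 h, a time taken from the methods of the study. Both groups had first spent 4 h in medium without serum. RNA was isolated with an RNeasy kit according to the labels and with TRIzol according to the methods, and libraries were made from polyadenylated RNA. Replicate 1 of each group was read in lane 3 and replicate 2 in lane 6. The series calls the replicates biological, but nothing states what separated them, so the p-values apply to these samples only. They rest mostly on a variance shared across genes, with 32.3 prior and 1 residual degrees of freedom, and little on the spread of each gene. Total counts per library were 2707500 in control 1, 8995052 in control 2, 8720784 in LPS 1 and 12069807 in LPS 2, and 3 counts corresponded to 1.11, 0.334, 0.344 and 0.249 CPM (counts scaled to a common library total, here without TMM). Mitochondrial genes took 4.17% and 3.40% of the counts in the control libraries and 2.62% and 3.02% in the LPS libraries, and the part of this difference in the results was not tested.

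Markers of the cell types that such a culture could hold were read first. All 12 macrophage and microglia markers were tested, and their summed level was 5776, 7077, 5810 and 6276 CPM in control 1, control 2, LPS 1 and LPS 2. This order of libraries is kept wherever 4 values follow each other, and CPM are from here on scaled to TMM-normalized library sizes. The most abundant of these markers, without regard to gene length, was the lysozyme gene Lyz2 in control cells and the F4/80 gene Adgre1 in LPS cells. Lyz2 measured 2574, 3440.0, 755 and 788 CPM (log2 fold change -1.95, SE 0.16, adjusted p = 2.0e-12), and both LPS libraries lay far below both control libraries. Adgre1 measured 649, 686, 1635 and 1854 CPM and was an up-regulated gene (log2 fold change 1.38, SE 0.15, adjusted p = 2.2e-09), although it was not called with library-size scaling, where its log2 fold change was 0.96. Markers of other lineages differed in level. Summed levels were 0.967, 0.765, 1.45 and 2.72 CPM for the 6 astrocyte markers, mostly Slc1a2, with no count of Aqp4, Aldh1l1 or Gja1. They were 2.26, 0.765, 0.395 and 0.582 CPM for the 6 neuron markers, from Tubb3 and Map2, with no count of Rbfox3, Snap25, Syt1 or Nefl. The 6 fibroblast markers summed to 0, 0, 0.132 and 0.291 CPM, with no count of Col3a1 or Lum. The 6 T and B cell markers summed to 0.645, 1.34, 0.132 and 0.388 CPM, from Cd4 and Ms4a1, with no count of Cd3e, Cd3g or Cd79a. The 6 oligodendrocyte markers summed to 31.9, 29.9, 31.6 and 26.9 CPM, nearly all from Cnp, with no count of Mog or Olig2. The 6 endothelial markers summed to 188.6, 153.9, 131.5 and 83.6 CPM, all but a few CPM from Vwf and Kdr, with no count of Cldn5. Kdr, which encodes a receptor for vascular endothelial growth factor, measured 79.97, 78.6, 9.74 and 7.66 CPM (log2 fold change -3.20, SE 0.20, adjusted p = 3.2e-15). Kdr was high in both control libraries and low in both LPS libraries, whereas the values of Vwf (108, 74.7, 121 and 74.2 CPM) overlapped between groups. The part of this difference in the other results was not tested. In bulk samples of this kind, fewer cells of a type and less RNA per cell cannot be told apart.

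Microglia are the resident macrophages of the central nervous system. They sense LPS through the receptor Tlr4 with its partner Cd14, and the signal reaches transcription factors of the NF-kB, AP-1 and interferon regulatory families. Macrophages exposed to LPS are known to take up more glucose and cystine, to make nitric oxide from arginine and itaconate from an intermediate of the tricarboxylic acid (TCA) cycle, and to change the set of receptors with which they survey their surroundings. The fit over 12888 genes called 3282 differentially expressed genes (DEGs, 25.5%), with 1603 up-regulated (12.4%) and 1679 down-regulated (13.0%). A DEG changed at least 2-fold with an adjusted p below 0.05, the replicate number being kept as a block. Without the block the count was 2918 (1485 up-regulated and 1433 down-regulated), and 2896 of these were among the 3282. With DESeq2, the tool of the study, and the block, 1341 genes were up-regulated and 1138 down-regulated, so the majority turned. Scaling by library size, which moved the median log2 fold change over all genes from 0.012 to -0.41, gave 986 up-regulated and 2938 down-regulated DEGs. Without control replicate 2, in a fit of the other 7 libraries of the series with the block, the down-regulated DEGs numbered 1054. Of the 3282 DEGs, 3256 had no overlap between the groups, as had 8554 of the 12888 tested genes, so a lack of overlap was common with 2 libraries per group. Classic inflammatory genes were up-regulated in 38 of 38 cases with a median log2 fold change of 4.87, or 4.45 with genes near 0 set to their bound. The study had already reported many of them, such as Cd14, Il1b and Tnf, as up-regulated in these same data. Their count is therefore a description and no independent support. Of the classic inflammatory genes, 9 are also members of the lists below, where their part is given, and Traf1 is named among the genes turned on.

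**Figure D1:**
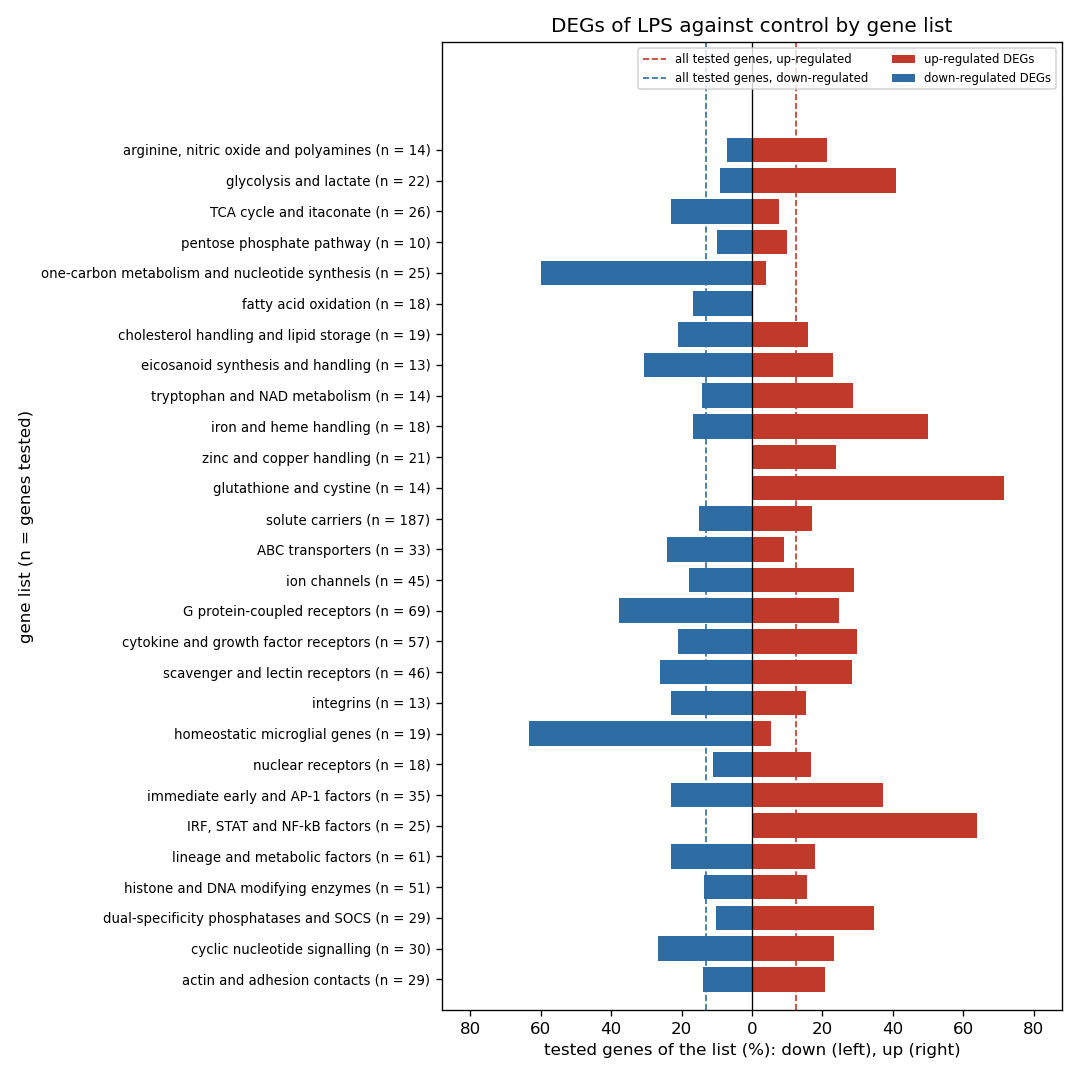
Share of the tested genes of each gene list other than the classic inflammatory genes that were up-regulated (red, to the right) or down-regulated (blue, to the left) in LPS against control cells, in percent, with the number of tested genes in brackets. The dashed lines mark the 12.4% up-regulated and 13.0% down-regulated among all 12888 tested genes. Homeostatic microglial genes (63.2% down-regulated) and the genes of glutathione and cystine (71.4% up-regulated) reach farthest on the 2 sides among the lists drawn. Neither changes direction under library-size scaling. One-carbon and nucleotide genes (60.0% down-regulated) lie close behind the homeostatic genes, and pass them when control replicate 2 or either LPS replicate is left out.

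Genes of metabolism changed in both directions, with 50 of 214 tested genes up-regulated (23.4%) and 41 down-regulated (19.2%), a majority that turned with library-size scaling (39 and 60). In arginine metabolism, Nos2 (ENSMUSG00000020826, chromosome 11, 78920787 to 78960254), the inducible nitric oxide synthase, measured 2.26, 0.669, 799 and 852 CPM (log2 fold change 9.58, SE 0.28, adjusted p = 5.3e-24). Nos2 was close to 0 in the control libraries and high in both LPS libraries. Gch1, the entry enzyme of tetrahydrobiopterin synthesis and so of the Nos2 cofactor, measured 28.1, 39.4, 277 and 250.2 CPM (log2 fold change 2.94, SE 0.18, adjusted p = 1.4e-15). Slc7a2, a cationic amino acid transporter that carries arginine into the cell, measured 10.6, 10.2, 28.4 and 39.9 CPM (log2 fold change 1.75, SE 0.23, adjusted p = 9.4e-08). For Gch1 and Slc7a2, the LPS libraries lay well above both control libraries. Spermidine synthase (Srm) went the other way, with 48.05, 51.6, 20.4 and 17.4 CPM (log2 fold change -1.42, SE 0.19, adjusted p = 2.1e-07), and both LPS libraries were below the control. The ornithine decarboxylase gene Odc1 measured 23.9, 22.9, 28.8 and 14.3 CPM, overlapping between the groups. Of the 14 tested genes of arginine, nitric oxide and polyamines, 3 were up-regulated and 1 was down-regulated, with a median log2 fold change of -0.31 beside 0.012 over all genes, which became 0.16 without control replicate 2 and 0.013 without LPS replicate 2. With library-size scaling 3 were down-regulated, and Nos2 is 1 of the classic inflammatory genes. Argininosuccinate synthase (Ass1), which recycles citrulline, held 0, 0, 0 and 2 counts and was not tested.

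Glycolysis and lactate genes were up-regulated in 9 of 22 tested cases (40.9%) and down-regulated in 2, with a median log2 fold change of 0.92, or 0.50 with library-size scaling. Slc2a1 (ENSMUSG00000028645, chromosome 4, 119108711 to 119137983), the glucose importer of most cells, measured 45.8, 38.6, 386 and 255 CPM (log2 fold change 2.88, SE 0.17, adjusted p = 5.3e-16). Slc2a1 was high in both LPS libraries, more so in LPS 1. The subunits of phosphofructokinase did not all move in the same direction. Pfkl, the liver-type subunit, measured 79.97, 66.2, 425 and 276 CPM (log2 fold change 2.23, SE 0.16, adjusted p = 1.3e-13), whereas Pfkm, the muscle-type subunit, measured 32.2, 26.7, 8.03 and 6.11 CPM (log2 fold change -2.07, SE 0.24, adjusted p = 8.1e-09). Pfkp, the most abundant subunit, was up-regulated like Pfkl, at 291, 324, 912 and 844 CPM (log2 fold change 1.51, SE 0.15, adjusted p = 3.6e-10). The groups overlapped for none of these subunits. A like contrast held for the monocarboxylate transporters that move lactate across the plasma membrane. Slc16a3 measured 104, 99.8, 551 and 369.7 CPM (log2 fold change 2.14, SE 0.16, adjusted p = 4.1e-13), and Slc16a1 measured 182, 191, 103 and 82.2 CPM (log2 fold change -1.03, SE 0.16, adjusted p = 1.8e-06). Slc16a3 was higher and Slc16a1 lower in every LPS library than in every control library, but Slc16a1 was not called without control replicate 2 (log2 fold change -0.96) or without LPS replicate 2 (-0.86), nor with every gene of at least 1 count tested. Lactate dehydrogenase A (Ldha) measured 493, 514, 947 and 751 CPM, a log2 fold change of 0.74 that stayed under the 2-fold minimum, and the regulatory enzyme Pfkfb3 measured 8.71, 14.6, 10.9 and 11.5 CPM, overlapping between groups. In the pentose phosphate pathway, where 1 of 10 tested genes was up-regulated and 1 down-regulated (median 0.18, or 0 and 3 and -0.24 with library-size scaling), the down-regulated one lost its call whichever library was left out. Transaldolase (Taldo1) measured 331, 371, 814 and 764 CPM (log2 fold change 1.17, SE 0.15, adjusted p = 6.9e-08), the LPS libraries being about level with each other and above the control, but it was not called with library-size scaling (0.75). The NADPH-yielding enzymes G6pdx (144, 195, 315 and 352 CPM) and Pgd (102, 139.5, 217 and 238 CPM) were higher in both LPS libraries without reaching 2-fold, although both passed that minimum without control replicate 2 (1.03 and 1.06) and G6pdx also without LPS replicate 2 (1.09), with DESeq2 and with every gene of at least 1 count. Transketolase (Tkt) measured 597, 649.9, 665 and 547 CPM and malic enzyme 1 (Me1) 18.7, 28.5, 34.2 and 37.7 CPM, neither past the 2-fold minimum.

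The TCA cycle list held 2 up-regulated and 6 down-regulated genes among 26 tested, with a median log2 fold change of -0.36. With library-size scaling these values were 2, 8 and -0.78. Acod1 (ENSMUSG00000022126, chromosome 14, 103046977 to 103056573), which makes itaconate from cis-aconitate, measured 29.02, 32.9, 6589 and 8873 CPM (log2 fold change 7.96, SE 0.21, adjusted p = 3.1e-25). The control libraries were low and alike, and both LPS libraries lay far above them. Pyruvate carboxylase (Pcx), which feeds carbon into the cycle as oxaloacetate, measured 18.1, 15.2, 63.1 and 52.9 CPM (log2 fold change 1.80, SE 0.19, adjusted p = 1.6e-09). Cytosolic malate dehydrogenase (Mdh1) measured 461, 501, 133 and 151 CPM (log2 fold change -1.76, SE 0.15, adjusted p = 9.2e-12), and the catalytic subunit gene Idh3a of the NAD-dependent isocitrate dehydrogenase measured 105, 131, 43.3 and 45.2 CPM (log2 fold change -1.42, SE 0.17, adjusted p = 8.3e-09). Pcx was higher, and Mdh1 and Idh3a were lower, in both LPS libraries. Suclg2, a subunit of succinyl-CoA ligase, measured 18.7, 17.4, 5.00 and 5.14 CPM (log2 fold change -1.82, SE 0.28, adjusted p = 1.5e-06), again without overlap. Idh1 (300.5, 430.4, 327 and 417 CPM) did not separate the groups. Succinate dehydrogenase subunit A (Sdha) measured 465, 466, 373 and 340.3 CPM, lower in both LPS libraries but under the 2-fold minimum (log2 fold change -0.39).

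Of the preselected metabolic, transporter, receptor and transcription factor genes, 29 were up-regulated. Among these, Acod1 alone had a promoter that was given and held the letters searched for the interferon-stimulated response element or NF-kB. The promoter of Acod1 is therefore shown. The 250 bases before its start lie at chr14:103046762-103047011 on the + strand (RefSeq, GRCm38.p6). The RefSeq start differs from the start of the gene position given above, so the last of these bases lie inside that position. They hold GGAAATTCC, marked in capitals, which reads GGANTTTCC on the opposite strand and begins 85 bases before the RefSeq start. These letters stood in 1.25% of the 32851 promoters in the table. A match of letters is a description of the sequence and does not show that a factor binds there.
Acod1: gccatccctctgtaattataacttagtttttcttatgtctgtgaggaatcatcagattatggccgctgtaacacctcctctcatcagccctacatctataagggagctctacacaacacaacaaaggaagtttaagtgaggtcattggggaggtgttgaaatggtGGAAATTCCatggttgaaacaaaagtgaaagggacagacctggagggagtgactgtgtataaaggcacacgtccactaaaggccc

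Glutathione and cystine genes were up-regulated in 10 of 14 tested cases (71.4%) and down-regulated in 0, with a median log2 fold change of 1.81, or 1.38 with library-size scaling, which left the counts at 10 and 0. Slc7a11 (ENSMUSG00000027737, chromosome 3, 49892526 to 50443614), the cystine importer that supplies cysteine for glutathione, measured 129, 156, 1507 and 2043 CPM (log2 fold change 3.63, SE 0.17, adjusted p = 6.7e-19). Srxn1, which restores oxidized peroxiredoxins, measured 222, 324, 2651 and 2346 CPM (log2 fold change 3.21, SE 0.18, adjusted p = 1.1e-16). The modifier subunit of the enzyme that limits glutathione synthesis, Gclm, measured 30.96, 46.3, 115 and 179 CPM (log2 fold change 1.93, SE 0.17, adjusted p = 1.6e-11). All of these were clearly separated, with the LPS libraries on the higher side. The quinone reductase gene Nqo1 remained a low gene, at 0.967, 1.24, 4.34 and 7.17 CPM (log2 fold change 2.42, SE 0.48, adjusted p = 7.5e-05), but it too did not overlap.

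One-carbon metabolism and nucleotide synthesis changed mostly downward, with 15 of 25 tested genes down-regulated (60.0%), 1 up-regulated and a median log2 fold change of -1.11, or 19 down-regulated and a median of -1.53 with library-size scaling. Rrm2, the cell cycle-dependent subunit of ribonucleotide reductase, measured 18.7, 32.2, 2.77 and 0.970 CPM (log2 fold change -3.87, SE 0.36, adjusted p = 5.4e-11). Its larger partner Rrm1 measured 111, 138, 31.6 and 23.9 CPM (log2 fold change -2.18, SE 0.18, adjusted p = 3.8e-12). Both subunit genes were high in each control library and low in each LPS library, with LPS 2 the lowest. Serine hydroxymethyltransferase makes glycine and a one-carbon unit from serine. Its cytosolic form Shmt1 measured 26.1, 29.8, 8.69 and 7.37 CPM (log2 fold change -1.82, SE 0.24, adjusted p = 1.0e-07) and its mitochondrial form Shmt2 measured 137, 130.4, 74.7 and 48.6 CPM (log2 fold change -1.16, SE 0.17, adjusted p = 6.1e-07). No LPS library reached the control range for either, but Shmt2 was not called without control replicate 2 (-0.96). Mitochondrial Mthfd2, which acts after Shmt2, was nearly level at 194, 219, 207 and 207 CPM, and thymidylate synthase (Tyms) measured 29.3, 39.4, 26.5 and 24.4 CPM (log2 fold change -0.45, SE 0.20, adjusted p = 0.063), which did not pass the test. Phgdh, the entry enzyme of serine synthesis, measured 127, 113, 103 and 61.4 CPM, under the 2-fold minimum except with library-size scaling (-1.02). The up-regulated gene was Impdh1, an enzyme of guanine nucleotide synthesis, at 4.51, 5.07, 13.8 and 8.53 CPM (log2 fold change 1.09, SE 0.32, adjusted p = 0.0047). Its LPS values lay above the control values, but it was not called with DESeq2, with library-size scaling (0.67), without control replicate 1 (0.86) or without LPS replicate 1 (0.85), its adjusted p ranging up to 0.10.

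Of 18 tested genes of fatty acid oxidation, none was up-regulated and 3 were down-regulated (16.7%), with a median log2 fold change of -0.50, or 8 and -0.93 with library-size scaling. Without control replicate 1 the down-regulated genes numbered 6. The 3 were Acaa2, the thiolase of the last step (78.4, 73.3, 28.3 and 21.6 CPM; log2 fold change -1.62, SE 0.18, adjusted p = 2.1e-09), Acadvl, the dehydrogenase for very long chains, and Hadh. Acadvl measured 38.05, 36.8, 19.2 and 14.8 CPM (log2 fold change -1.16, SE 0.20, adjusted p = 1.5e-05), and Hadh measured 62.9, 84.4, 33.2 and 30.3 CPM (log2 fold change -1.22, SE 0.18, adjusted p = 7.2e-07). The LPS values of these 3 genes lay below the control values, but Hadh was not called without control replicate 2 (-1.0). Cpt1a, the carnitine transferase at the entry of the pathway, measured 32.6, 27.2, 18.2 and 22.8 CPM, which was under the 2-fold minimum, and the medium-chain dehydrogenase Acadm measured 149, 147, 121 and 119 CPM. In cholesterol handling and lipid storage, 3 of 19 tested genes were up-regulated and 4 down-regulated, a majority that turned without LPS replicate 2 (3 and 2), and the median of 0.079 became -0.34 with library-size scaling and 0.18 without LPS replicate 2. Hilpda, a protein of lipid droplets that inhibits their lipolysis, measured 13.5, 13.7, 219.9 and 109 CPM (log2 fold change 3.42, SE 0.21, adjusted p = 1.1e-15). It was higher in both LPS libraries, with a wide gap between them. Lipoprotein lipase (Lpl) measured 1634, 2105, 496 and 683 CPM (log2 fold change -1.67, SE 0.15, adjusted p = 3.4e-11) and apolipoprotein E (Apoe) measured 177, 165, 90.2 and 63.7 CPM (log2 fold change -1.18, SE 0.16, adjusted p = 2.0e-07). Lpl and Apoe were lower in both LPS libraries, but Apoe was not called without LPS replicate 2 (-0.92). The cholesterol exporters Abca1 (187, 191, 203 and 197 CPM) and Abcg1 (279, 268, 304 and 263 CPM) stayed close together in the 4 libraries. Nor were the fatty acid receptor Cd36 (55.8, 65.96, 56.5 and 92.9 CPM), the lipid droplet protein Plin2 (407, 386, 573 and 566 CPM) and the oxysterol-sensing factor Nr1h3 (9.03, 6.69, 15.5 and 8.34 CPM) called, and Ch25h had no count. Of the other genes with a call, Npc2, a cholesterol carrier of lysosomes, had a log2 fold change of 1.24 (not called with library-size scaling, 0.82) and Cyp27a1, a sterol hydroxylase, one of -1.45.

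In eicosanoid synthesis and handling, 3 of 13 tested genes were up-regulated and 4 down-regulated, or 1 and 5 with library-size scaling and 2 and 2 without LPS replicate 1. Without control replicate 1 or LPS replicate 2, 1 was up-regulated. The median log2 fold change was -0.20, or 0.037 without control replicate 2 and 0.16 without LPS replicate 1. The cyclooxygenase genes moved in opposite directions. Ptgs2, the inducible form, measured 9.35, 12.8, 1311 and 1680.0 CPM (log2 fold change 7.07, SE 0.21, adjusted p = 5.3e-24), and Ptgs1, the constitutive form, measured 31.6, 37.5, 5.66 and 5.53 CPM (log2 fold change -2.63, SE 0.24, adjusted p = 4.0e-11). In both cases the groups were far apart, and Ptgs2 is a classic inflammatory gene as well. The prostaglandin E2 receptor gene Ptger4 measured 24.2, 25.6, 7.77 and 6.40 CPM (log2 fold change -1.83, SE 0.25, adjusted p = 1.9e-07), lower in both LPS libraries. Leukotriene A4 hydrolase (Lta4h) measured 43.9, 36.6, 17.5 and 17.7 CPM (log2 fold change -1.17, SE 0.20, adjusted p = 9.5e-06), and it was not called without LPS replicate 1 (-1.0). The prostaglandin E synthase gene Ptges passed the test at low levels (2.58, 2.96, 6.98 and 6.21 CPM; log2 fold change 1.19), but it lost the call with all 8 libraries, DESeq2, library-size scaling (0.77) and thinned libraries. It also did without any 1 of the 4 libraries, with values between 0.81 and 1.64, and its adjusted p ranged up to 0.34. Thromboxane synthase (Tbxas1) measured 9.03, 12.4, 22.6 and 23.9 CPM (log2 fold change 1.09) and was not called with library-size scaling (0.67), without control replicate 1 (0.79) or without LPS replicate 2 (0.95). The phospholipase Pla2g4a (200.2, 221, 157 and 212 CPM) and prostaglandin D synthase Hpgds (175, 205, 138 and 177 CPM) overlapped between groups. Alox5ap (172, 196, 89.8 and 94.3 CPM) lay at the 2-fold minimum and was called with all 8 libraries, with library-size scaling, without control replicate 1 (-1.18) or LPS replicate 2 (-1.09), and Alox5 held 0, 3, 0 and 0 counts.

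In NAD metabolism, Parp14, a mono-ADP-ribosyltransferase, measured 102, 132, 1011 and 1417 CPM (log2 fold change 3.37, SE 0.16, adjusted p = 3.5e-18). Nampt, the rate-limiting enzyme of NAD salvage, measured 464, 615, 1800.0 and 2565 CPM (log2 fold change 2.01, SE 0.15, adjusted p = 5.8e-13), and Cd38, which hydrolyses NAD, measured 9.35, 6.60, 28.04 and 35.8 CPM (log2 fold change 2.09, SE 0.25, adjusted p = 1.4e-08). Each of these was higher in both LPS libraries. Bst1, a relative of Cd38, measured 11.6, 13.4, 22.4 and 26.2 CPM, under the 2-fold minimum except with thinned libraries. The kynurenine pathway genes Kynu (4.19, 8.12, 1.71 and 1.26 CPM; log2 fold change -2.11, SE 0.45, adjusted p = 2.0e-04) and Kmo (4.51, 5.83, 1.84 and 1.16 CPM; log2 fold change -1.86, SE 0.46, adjusted p = 0.0012) were low and down-regulated. Both lost the call when single libraries were left out, Kynu without control replicate 2 (-1.49) or LPS replicate 2 (-1.44), and Kmo without any 1 of the 4, with values from -2.28 to -1.35, and also with DESeq2. Of the 14 tested genes of tryptophan and NAD metabolism, 4 were up-regulated and 2 down-regulated. The median log2 fold change was 0.64, or 0.22 with library-size scaling, which left the counts at 4 and 2.

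Iron and heme genes were up-regulated in 9 of 18 tested cases and down-regulated in 3, with a median log2 fold change of 0.87. With library-size scaling these values were 7, 4 and 0.45. Of the 9, 1 gene, Lcn2, is also a classic inflammatory gene. Slc11a2, a transporter of ferrous iron, measured 79.3, 85.1, 478 and 449 CPM (log2 fold change 2.49, SE 0.16, adjusted p = 5.3e-15). Hmox1, which opens the heme ring and frees its iron, measured 145, 192, 801 and 711 CPM (log2 fold change 2.17, SE 0.16, adjusted p = 3.3e-13). Ceruloplasmin (Cp), a ferroxidase, measured 1.94, 4.11, 77.9 and 90.7 CPM (log2 fold change 4.66, SE 0.24, adjusted p = 2.2e-17). All of them were higher in both LPS libraries, Cp from a level near 0. Haptoglobin (Hp), which binds free hemoglobin, measured 2.58, 5.54, 63.5 and 56.2 CPM (log2 fold change 3.69, SE 0.25, adjusted p = 2.4e-14), also with no overlap. The transferrin receptor (Tfrc) measured 614, 748, 256 and 319 CPM (log2 fold change -1.25, SE 0.15, adjusted p = 1.5e-08) and the ferrireductase Steap3 measured 35.8, 26.5, 9.22 and 6.59 CPM (log2 fold change -1.98, SE 0.23, adjusted p = 1.1e-08). Tfrc and Steap3 were lower in both LPS libraries. Ferritin heavy chain (Fth1) measured 2913, 3416, 7604 and 7655 CPM (log2 fold change 1.27, SE 0.15, adjusted p = 1.6e-08) and the phagosomal metal transporter Slc11a1 measured 294, 328, 813 and 686 CPM (log2 fold change 1.26, SE 0.15, adjusted p = 2.2e-08). Both were higher in each LPS library, but with library-size scaling their log2 fold changes were 0.85 and 0.84 and neither was called. The iron exporter Slc40a1 measured 60.9, 63.2, 65.4 and 94.04 CPM (log2 fold change 0.36, SE 0.17, adjusted p = 0.078) and did not pass the test. Biliverdin reductase (Blvra) had a log2 fold change of -1.13, which without LPS replicate 2 was -1.0 and not called, and Steap4 had no count.

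Among 21 tested genes of zinc and copper handling, 5 were up-regulated and 0 down-regulated, with a median of 0.44. With library-size scaling these values were 3, 1 and 0.014. Slc31a2, a copper transporter of endosomes, measured 79.97, 77.05, 318 and 340.3 CPM (log2 fold change 2.07, SE 0.16, adjusted p = 4.8e-13), and Slc30a1, the zinc exporter of the plasma membrane, measured 43.5, 37.2, 117 and 150.1 CPM (log2 fold change 1.75, SE 0.18, adjusted p = 3.5e-10). LPS values were the higher ones for both. Slc39a4, a zinc importer, measured 0.967, 0.956, 9.88 and 7.27 CPM (log2 fold change 3.04, SE 0.44, adjusted p = 6.8e-07), low but without overlap. The metallothioneins Mt1 (89.96, 72.7, 68.2 and 62.2 CPM) and Mt2 (8.38, 1.43, 3.42 and 1.36 CPM) were not called, except Mt2 with library-size scaling (-1.19), where Mt1 (-0.73) stayed under the 2-fold minimum. The test was not passed by the zinc importer Slc39a14 (42.6, 27.8, 45.3 and 32.1 CPM), and the copper pump Atp7a (64.8, 71.3, 83.5 and 104 CPM) stayed under the 2-fold minimum.

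**Figure D2:**
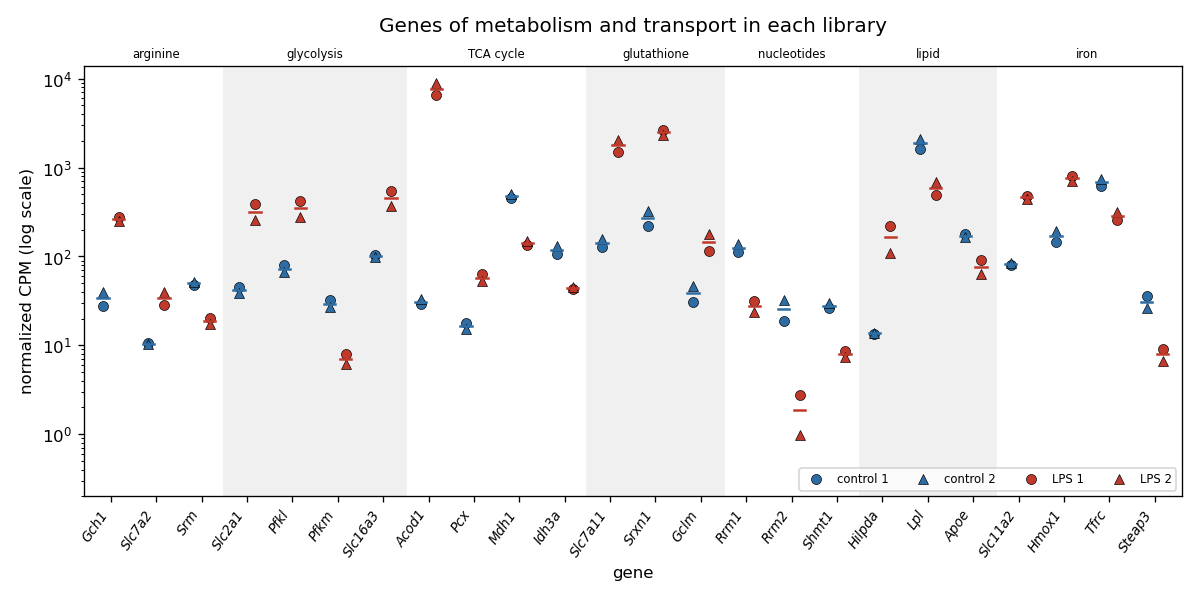
Normalized CPM (log scale) of metabolic genes in each of the 4 libraries, grouped by pathway, with control libraries in blue, LPS libraries in red, circles for replicate 1, triangles for replicate 2 and a short line at the mean of each group. The LPS and control points do not overlap for any gene drawn, and Acod1 goes from 29.02 and 32.9 CPM in control to 6589 and 8873 CPM in LPS libraries.

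Transporters were described as families. Of 375 solute carrier genes in the table, 110 had no count in the 4 libraries and 187 were tested. Of these, 32 were up-regulated (17.1%) and 28 down-regulated (15.0%), a majority that turned with library-size scaling (22 and 43), and the median was 0.0020, or -0.42 with that scaling and -0.065, -0.0135 and -0.0058 with control replicate 1, LPS replicate 1 or LPS replicate 2 left out. Slc28a2 (ENSMUSG00000027219, chromosome 2, 122426477 to 122461137), a sodium-coupled importer of purine nucleosides, measured 0.645, 0.382, 28.8 and 27.1 CPM (log2 fold change 5.89, SE 0.40, adjusted p = 2.1e-14). It was barely detected in control cells and present at like levels in both LPS libraries. Slc15a3, a lysosomal transporter of histidine and small peptides, measured 121, 152, 1814 and 1466 CPM (log2 fold change 3.58, SE 0.18, adjusted p = 4.6e-18), also without overlap. Slc13a3, a dicarboxylate transporter, held 24 and 47 counts in control 1 and 2 and 2 and 1 in LPS 1 and 2 (ratio of counts 31.2, 95% counting interval 10.3 to 155, adjusted p = 1.7e-07). This gene was thus near the limit of detection in LPS cells. Slc19a1, the reduced folate carrier, measured 19.02, 11.9, 3.03 and 0.970 CPM (log2 fold change -3.06, SE 0.35, adjusted p = 5.6e-09), lower in both LPS libraries. Slc2a8, an intracellular glucose transporter, measured 6.45, 4.97, 1.45 and 0.679 CPM (log2 fold change -2.49, SE 0.49, adjusted p = 8.0e-05), and it was not called without control replicate 2 (log2 fold change -2.31).

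Of 33 tested ABC transporters, 3 were up-regulated and 8 down-regulated (24.2%), with a median log2 fold change of -0.24, or 2 and 13 and -0.66 with library-size scaling. Over the genes with at least 1 count the median was 0.049. The drug exporter Abcb1a (P-glycoprotein) measured 2.26, 4.68, 47.0 and 48.6 CPM (log2 fold change 3.64, SE 0.26, adjusted p = 7.9e-14), and Abcc1, which exports glutathione conjugates, measured 109, 93.5, 419.9 and 372 CPM (log2 fold change 1.97, SE 0.15, adjusted p = 9.8e-13). In LPS cells both were several times higher in each library. Abcd2, a peroxisomal importer of very long-chain fatty acids, measured 28.7, 31.9, 2.37 and 4.36 CPM (log2 fold change -3.15, SE 0.27, adjusted p = 1.1e-11). Abca6 measured 11.9, 11.6, 0.922 and 0.970 CPM (log2 fold change -3.60, SE 0.40, adjusted p = 3.5e-09), and Abca2 measured 12.6, 8.98, 1.05 and 1.45 CPM (log2 fold change -3.01, SE 0.40, adjusted p = 1.2e-07). These 3 genes were near or below the level of a few CPM in LPS cells, without overlap. Abcc5 (81.6, 104, 209 and 239.9 CPM; log2 fold change 1.28, SE 0.16, adjusted p = 2.4e-08) was up-regulated, but not with library-size scaling (0.85).

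Ion channel genes numbered 204, of which 99 had no count and 45 were tested. Among the tested genes, 13 were up-regulated and 8 down-regulated, which became 8 and 11 with library-size scaling. Their median was 0.16, or -0.26 with that scaling and -0.059, -0.051 and -0.043 with control replicate 1, LPS replicate 1 or LPS replicate 2 left out. Down-regulated channels numbered 5 without control replicate 2 and also 5 without LPS replicate 2. Trpm4, a cation channel opened by calcium, measured 1.61, 0.669, 27.9 and 11.4 CPM (log2 fold change 4.08, SE 0.37, adjusted p = 3.8e-11). Kcnab1, an auxiliary subunit of potassium channels, measured 0.967, 2.29, 14.5 and 18.5 CPM (log2 fold change 3.20, SE 0.35, adjusted p = 2.0e-09), and the water and glycerol channel Aqp9 measured 17.7, 18.1, 118 and 124 CPM (log2 fold change 2.76, SE 0.18, adjusted p = 1.0e-14). For each, the LPS libraries lay above the control libraries, and the LPS values of Trpm4 differed most between lanes. Tpcn1, an endolysosomal cation channel, measured 54.2, 53.1, 15.01 and 12.4 CPM (log2 fold change -1.98, SE 0.20, adjusted p = 3.2e-10), and the calcium channel subunit gene Cacna1d measured 8.06, 7.55, 2.24 and 1.84 CPM (log2 fold change -1.95, SE 0.39, adjusted p = 9.0e-05). These 2 genes were lower in both LPS libraries.

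Receptors were the theme with the largest share of DEGs of the 6 themes outside classic inflammation, 55.4% of 195 tested genes, with 50 up-regulated and 58 down-regulated, or 41 and 70 with library-size scaling. G protein-coupled receptors were up-regulated in 17 and down-regulated in 26 of 69 tested cases, or 14 and 30 with library-size scaling, 14 and 16 without control replicate 2 and 15 and 17 without LPS replicate 2. Their median log2 fold change was -0.12, or 0.084 without control replicate 2. Ccrl2 (ENSMUSG00000043953, chromosome 9, 111054486 to 111057519), an atypical receptor that binds chemerin, measured 10, 8.03, 452 and 410.4 CPM (log2 fold change 5.61, SE 0.20, adjusted p = 5.0e-22). It rose from a low control level to clearly higher levels in both LPS libraries. Adora2a, an adenosine receptor coupled to cyclic AMP, held 0 and 0 counts in control 1 and 2 and 92 and 95 in LPS 1 and 2, at least 17.0-fold higher in LPS cells with 3 counts per library in place of 0 (adjusted p = 1.1e-10). It was not called with DESeq2, its adjusted p ranging up to 0.11. Gpr183 (ENSMUSG00000051212, chromosome 14, 121952551 to 121965195), a receptor for oxysterols that guides cell migration, measured 60.3, 82.97, 0.922 and 0.776 CPM (log2 fold change -6.41, SE 0.29, adjusted p = 4.2e-19). Cxcr4, the receptor of the chemokine Cxcl12, measured 51.3, 67.9, 6.58 and 2.71 CPM (log2 fold change -3.77, SE 0.27, adjusted p = 8.7e-14). Control libraries were high and LPS libraries low for both Gpr183 and Cxcr4, and in LPS cells Gpr183 was below 1 CPM.

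Of 57 tested cytokine and growth factor receptors, 17 were up-regulated and 12 down-regulated, but 14 and 15 with library-size scaling, and the median log2 fold change of 0.26 became -0.16 with that scaling. Tnfrsf1b, a receptor for tumor necrosis factor, measured 107, 96.3, 1625 and 1462 CPM (log2 fold change 3.92, SE 0.17, adjusted p = 9.4e-20). Met, the receptor for hepatocyte growth factor, measured 5.48, 3.06, 54.1 and 58.4 CPM (log2 fold change 3.89, SE 0.26, adjusted p = 1.2e-14), and Tnfrsf9, a co-stimulatory receptor, measured 0.323, 0.478, 13.2 and 11.7 CPM (log2 fold change 4.74, SE 0.47, adjusted p = 2.6e-10). All of these had their lower values in both control libraries. Il18rap, the accessory chain of the interleukin-18 receptor, measured 14.8, 24.9, 1.58 and 0.679 CPM (log2 fold change -4.21, SE 0.38, adjusted p = 3.1e-11). Il1rl1, the interleukin-33 receptor, measured 20.3, 26.0, 3.03 and 3.39 CPM (log2 fold change -2.85, SE 0.28, adjusted p = 2.9e-10), and Il12rb2, a chain of the interleukin-12 receptor, measured 10, 6.98, 1.45 and 0.970 CPM (log2 fold change -2.80, SE 0.42, adjusted p = 1.3e-06). LPS cells thus had the lower values of these 3 receptor genes in every library.

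Scavenger and lectin receptors numbered 13 up-regulated and 12 down-regulated among 46 tested, or 11 and 12 with library-size scaling, 12 and 6 without control replicate 2 and 11 and 7 without LPS replicate 2. The median log2 fold change of 0.21 became -0.21 with that scaling and 0.035 without LPS replicate 1. Marco, a scavenger receptor for bacteria and particles, measured 2.26, 1.53, 113 and 76.98 CPM (log2 fold change 5.64, SE 0.26, adjusted p = 4.6e-19). Clec4e, a C-type lectin for mycobacterial glycolipid, measured 53.9, 70.6, 1028 and 2036 CPM (log2 fold change 4.58, SE 0.19, adjusted p = 2.2e-20). Both were far higher in LPS cells, with a gap between the LPS libraries for Clec4e. Treml4 measured 0, 1.05, 10.4 and 14.2 CPM (log2 fold change 4.10, SE 0.45, adjusted p = 2.9e-09), and without control replicate 2, which held its only control counts, the fitted log2 fold change was 9.04. The mannose receptor Mrc1 measured 149.6, 171, 38.05 and 27.8 CPM (log2 fold change -2.31, SE 0.18, adjusted p = 6.0e-13), and Trem2, a lipid-sensing receptor of microglia, measured 453, 500.1, 222 and 147 CPM (log2 fold change -1.40, SE 0.16, adjusted p = 1.0e-08). Mrc1 and Trem2 were lower in both LPS libraries. Lrp2, an endocytic receptor, had a log2 fold change of -1.62 but lost the call with DESeq2 and without control replicate 2 (-1.53), LPS replicate 1 (-1.66) or LPS replicate 2 (-1.61).

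Of 13 tested integrins, 2 were up-regulated and 3 down-regulated, with a median log2 fold change of -0.46, or 0.065 without control replicate 2 and 0.036 over those with at least 1 count, while library-size scaling left 2 up-regulated and called 5 down-regulated. Itgb7, a chain of gut-homing integrins, measured 17.1, 6.41, 234 and 149 CPM (log2 fold change 4.18, SE 0.21, adjusted p = 4.6e-18), and Itga5, of the fibronectin receptor, measured 21.3, 11.6, 68.6 and 59.8 CPM (log2 fold change 2.06, SE 0.20, adjusted p = 2.0e-10). LPS values of both were above the control values. Itgax, the CD11c chain, measured 30.3, 27.7, 6.32 and 4.17 CPM (log2 fold change -2.50, SE 0.26, adjusted p = 4.9e-10), Itga6, of laminin receptors, had a log2 fold change of -1.61 and Itgam, the CD11b chain, one of -1.08.

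Genes typical of resting, homeostatic microglia were down-regulated in 12 of 19 tested cases (63.2%) and up-regulated in 1, with a median log2 fold change of -2.12, or 15 and 0 and a median of -2.54 with library-size scaling. The down-regulated ones numbered 7 without control replicate 2 and 8 without LPS replicate 2. Mertk, a receptor for the uptake of dead cells, measured 30.6, 42.7, 6.45 and 8.53 CPM (log2 fold change -2.29, SE 0.23, adjusted p = 2.6e-10). The nucleotide receptor genes P2ry13 and P2ry6 measured 9.67, 16.2, 0.922 and 1.07 CPM (log2 fold change -3.71, SE 0.39, adjusted p = 9.8e-10) and 9.35, 7.26, 0.658 and 0.776 CPM (log2 fold change -3.46, SE 0.47, adjusted p = 1.7e-07). All of these were lower in both LPS libraries. P2ry12 measured 6.45, 9.46, 1.71 and 1.75 CPM (log2 fold change -2.22, SE 0.40, adjusted p = 2.0e-05), Cx3cr1, the fractalkine receptor, measured 3.55, 4.11, 0.527 and 0.194 CPM (log2 fold change -3.49, SE 0.67, adjusted p = 4.9e-05), and Gpr34 measured 2.58, 4.59, 0.658 and 0.485 CPM (log2 fold change -2.69, SE 0.61, adjusted p = 4.3e-04). These 3 receptor genes were low already in control cells. Without control replicate 2 or without LPS replicate 2 none of the 3 was called (log2 fold changes -2.18 and -1.81 for P2ry12, -3.23 and -2.67 for Cx3cr1, and -2.17 and -1.87 for Gpr34), and Gpr34 also lost the call with DESeq2, without control replicate 1 (-3.04) and without LPS replicate 1 (-3.26). Tmem119, a marker of microglia in tissue, had 1, 4, 0 and 0 counts in the 4 libraries and was not tested. The receptor gene Csf1r measured 375, 412, 312 and 274 CPM, lower in both LPS libraries but under the 2-fold minimum (log2 fold change -0.43). The up-regulated gene was Selplg, a ligand of selectins (17.1, 18.9, 44.6 and 42.8 CPM; log2 fold change 1.26, SE 0.20, adjusted p = 2.7e-06), which was not called with library-size scaling (0.84). Tgfbr1, a receptor of transforming growth factor beta, measured 78.4, 79.2, 57.8 and 66.1 CPM and did not pass the test.

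**Figure D3:**
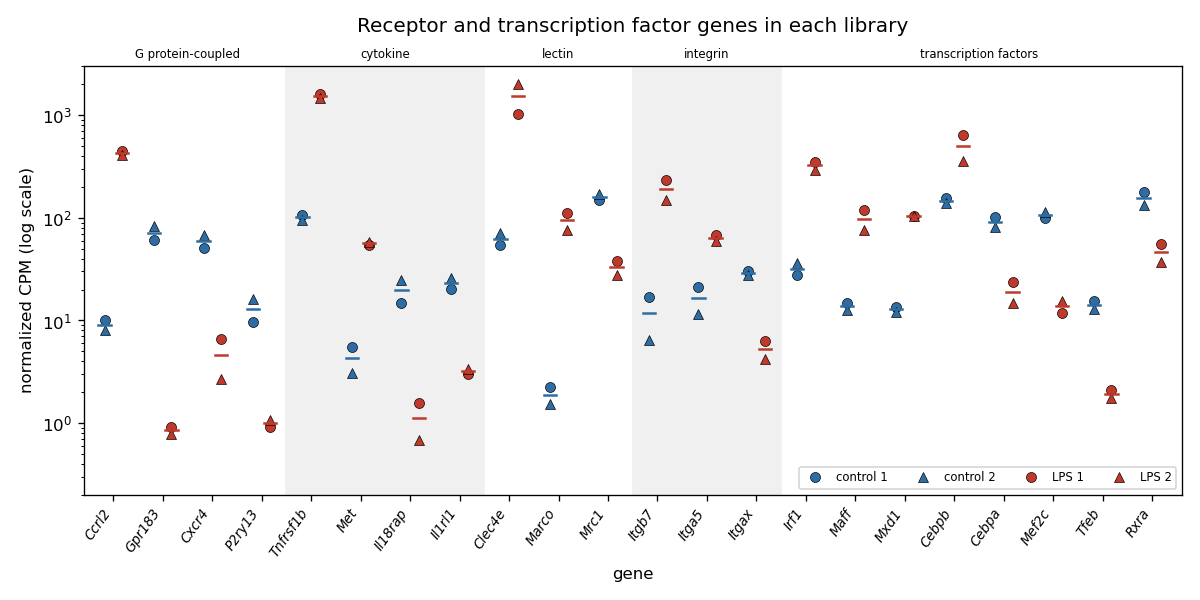
Normalized CPM (log scale) of receptor and transcription factor genes in each of the 4 libraries, grouped by family, with control libraries in blue, LPS libraries in red, circles for replicate 1, triangles for replicate 2 and a short line at the mean of each group. The groups do not overlap for any gene drawn, and Gpr183 falls from 60.3 and 82.97 CPM in control to 0.922 and 0.776 CPM in LPS libraries.

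Genes of transcription factors (139 tested) and of enzymes that modify histones or DNA (51 tested) were up-regulated in 51 and down-regulated in 31 of 190 tested cases (26.8% and 16.3%), which became 41 and 42 with library-size scaling. Factors of the interferon regulatory, STAT and NF-kB families, with their inhibitors, were up-regulated in 16 of 25 cases (64.0%) and down-regulated in 0, with a median log2 fold change of 1.82, or 15 and 0 and 1.40 with library-size scaling. Without the 6 that are also classic inflammatory genes, among them Nfkbia, Irf1 and Irf7, 10 of 19 were up-regulated. The NF-kB inhibitor gene Nfkbia measured 16.1, 17.3, 609 and 472 CPM (log2 fold change 4.96, SE 0.19, adjusted p = 3.8e-21), and the interferon regulatory factor genes Irf1 and Irf7 measured 27.7, 36.2, 354 and 295 CPM (log2 fold change 3.31, SE 0.18, adjusted p = 8.0e-17) and 86.4, 131, 929 and 1043 CPM (log2 fold change 3.20, SE 0.17, adjusted p = 2.4e-17). None of these genes had overlapping groups, LPS being the higher. Immediate early and AP-1 factors were up-regulated in 13 and down-regulated in 8 of 35 cases, with a median of 0.37, or 11 and 8 and -0.053 with library-size scaling. The down-regulated ones numbered 4 without control replicate 2 and 5 without LPS replicate 2, and the median was 0.61 without control replicate 1. Batf, an AP-1 partner factor, held 1 and 2 counts in control 1 and 2 and 54 and 66 in LPS 1 and 2 (ratio of counts 30.3, 95% counting interval 10.1 to 149, adjusted p = 8.2e-08). Ier3 measured 21.3, 23.3, 554 and 414 CPM (log2 fold change 4.38, SE 0.18, adjusted p = 6.3e-20), and Maff, a small Maf factor, measured 14.8, 12.7, 119 and 76.3 CPM (log2 fold change 2.76, SE 0.19, adjusted p = 4.0e-14). Ier3 and Maff were higher in both LPS libraries. Egr2 measured 4.51, 5.83, 0.922 and 0.679 CPM (log2 fold change -2.73, SE 0.52, adjusted p = 5.3e-05) but was not called without control replicate 2 (log2 fold change -2.32). Fos, at 10.3, 13.0, 6.98 and 1.16 CPM, depended on LPS 2, with a log2 fold change of -1.88 that became -0.88 without LPS replicate 2, -3.27 without LPS replicate 1 and -1.01 without control replicate 2. It was also not called without the block.

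Among lineage and metabolic factors, 11 of 61 tested genes were up-regulated and 14 down-regulated, a majority that turned when control replicate 2 (11 and 7), LPS replicate 1 (11 and 10) or LPS replicate 2 (11 and 10) was left out, and the median of 0.038 became -0.39 with library-size scaling. That median was also below 0 with control replicate 2 (-0.021) or LPS replicate 2 (-0.015) left out. Cebpb and Cebpa, of the C/EBP family of myeloid factors, moved in opposite directions. Cebpb measured 157, 138, 639 and 357 CPM (log2 fold change 1.69, SE 0.16, adjusted p = 1.4e-10), and Cebpa measured 102, 80.6, 23.4 and 14.8 CPM (log2 fold change -2.29, SE 0.18, adjusted p = 9.2e-13). Both pairs of groups were separate. Mxd1, an antagonist of Myc, measured 13.5, 12.04, 103 and 103 CPM (log2 fold change 3.03, SE 0.19, adjusted p = 3.7e-15), and Prdm1, a repressor known from plasma cells, measured 2.58, 2.48, 18.3 and 16.5 CPM (log2 fold change 2.75, SE 0.32, adjusted p = 8.0e-09). LPS values of these genes were several times the control values. Id3, an inhibitor of basic helix-loop-helix factors, held 0 and 1 counts in control 1 and 2 and 170 and 78 in LPS 1 and 2 (ratio of counts 188, 95% counting interval 33.4 to 7447, adjusted p = 2.3e-11). It was near 0 in control cells and higher in LPS 1 than in LPS 2. Mef2c (ENSMUSG00000005583, chromosome 13, 83504034 to 83667080), a factor of microglial identity, measured 98.99, 113, 11.8 and 15.6 CPM (log2 fold change -2.95, SE 0.18, adjusted p = 2.4e-15), and Tfeb, a regulator of lysosomal genes, measured 15.5, 12.9, 2.11 and 1.75 CPM (log2 fold change -2.87, SE 0.34, adjusted p = 1.3e-08). Mybl2, a factor of dividing cells, measured 12.9, 14.2, 1.84 and 1.75 CPM (log2 fold change -2.92, SE 0.35, adjusted p = 1.4e-08). LPS libraries were the lower ones for Mef2c, Tfeb and Mybl2.

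Low levels or single libraries bore on other factors. Myc measured 0, 0.478, 3.42 and 4.56 CPM (log2 fold change 3.57, SE 0.68, adjusted p = 5.0e-05), and without control replicate 2, which held its only control counts, the fitted value was 7.64. The aryl hydrocarbon receptor Ahr measured 3.23, 1.91, 10.5 and 11.9 CPM (log2 fold change 2.28, SE 0.36, adjusted p = 2.8e-06), higher in both LPS libraries. E2f1, a factor of the entry into S phase, measured 18.4, 16.4, 9.88 and 5.43 CPM (log2 fold change -1.26, SE 0.27, adjusted p = 2.3e-04) and was not called without control replicate 2 (-0.97). Foxm1 measured 5.16, 4.49, 1.32 and 0.388 CPM (log2 fold change -2.65, SE 0.55, adjusted p = 1.6e-04) and was not called without control replicate 1 (-2.48), control replicate 2 (-2.65) or LPS replicate 2 (-1.64). The myeloid master factor Spi1 (82.9, 117, 165 and 151 CPM) and the hypoxia factor Hif1a (157, 191, 217 and 326 CPM) were higher in both LPS libraries but under the 2-fold minimum, with log2 fold changes of 0.66 and 0.62. Bhlhe40 (44.8, 42.9, 72.5 and 70.0 CPM) was likewise under that minimum, and Nfe2l2 (98.3, 133, 132 and 179.9 CPM), Cebpd (37.1, 29.1, 40.3 and 22.5 CPM), Id2 (46.1, 51.9, 54.6 and 61.1 CPM) and Bcl6 (6.77, 9.56, 5.66 and 6.50 CPM) were not called either. Tfec, related to Tfeb, measured 43.2, 57.4, 104 and 127 CPM (log2 fold change 1.20, SE 0.17, adjusted p = 2.3e-07) but was not called with library-size scaling (0.78), and Id1 held 1, 0, 0 and 0 counts.

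Nuclear receptors and enzymes of chromatin were read next. Of 18 tested nuclear receptors, 3 were up-regulated and 2 down-regulated, which became 1 and 3 with library-size scaling and 1 and 1 without control replicate 2, and their median was 0.51, or -0.12 over the genes with at least 1 count. Without LPS replicate 2, 1 was down-regulated. The median of the nuclear receptors was 0.083 with library-size scaling. Rora measured 2.58, 5.26, 15.4 and 17.9 CPM (log2 fold change 2.01, SE 0.30, adjusted p = 1.2e-06), and Rxra, the shared partner of many nuclear receptors, measured 177, 134, 55.3 and 37.5 CPM (log2 fold change -1.76, SE 0.16, adjusted p = 5.4e-11). Rora was higher and Rxra lower in both LPS libraries. Ppard had a log2 fold change of 1.25 and lost the call with DESeq2, with library-size scaling (0.83), with libraries thinned to equal totals, without control replicate 2 (0.95) and without LPS replicate 2 (1.22). Of 51 tested enzymes that modify histones or DNA, 8 were up-regulated and 7 down-regulated, a majority that turned with library-size scaling (5 and 13) and without control replicate 1 (7 and 8). Their median was 0.062, or -0.36 with that scaling and -0.012, -0.10 and -0.023 with control replicate 1, control replicate 2 or LPS replicate 2 left out. Dnmt3l, a cofactor of DNA methyltransferases, measured 10.96, 12.1, 58.6 and 57.1 CPM (log2 fold change 2.30, SE 0.21, adjusted p = 2.0e-11), the histone H3 lysine methyltransferase gene Setdb2 had a log2 fold change of 1.96 and its relative Setdb1 one of 1.70. Hdac9, a histone deacetylase, measured 46.4, 52.9, 8.95 and 10.4 CPM (log2 fold change -2.36, SE 0.21, adjusted p = 1.7e-11), and the histone demethylase gene Kdm2b had a log2 fold change of -2.29. The groups did not overlap for these 5 genes. Suv39h2, another such methyltransferase, had a log2 fold change of -1.89 and was not called without control replicate 2 (-1.75) or LPS replicate 2 (-1.78).

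Signalling regulators included brakes on kinases, genes of cyclic nucleotides and Rgs genes. Of 29 tested genes of dual-specificity phosphatases and SOCS proteins, with Spry2, Spred1 and Spred2 counted among them, 10 were up-regulated and 3 down-regulated, with a median log2 fold change of 0.42, or -0.0052 with library-size scaling. Dusp1, which removes phosphate from stress-activated kinases, measured 6.45, 4.40, 49.9 and 55.4 CPM (log2 fold change 3.39, SE 0.24, adjusted p = 9.9e-14), and Socs3, an inhibitor of cytokine receptor signalling, measured 4.51, 4.97, 48.9 and 31.3 CPM (log2 fold change 2.93, SE 0.25, adjusted p = 8.3e-12). By contrast, the ERK phosphatase genes Dusp6 and Dusp7 measured 20.96, 20.3, 6.58 and 5.14 CPM (log2 fold change -1.83, SE 0.27, adjusted p = 6.1e-07) and 30.6, 36.04, 6.32 and 6.40 CPM (log2 fold change -2.40, SE 0.24, adjusted p = 2.6e-10). Dusp5, of the same family, measured 18.7, 10.04, 47.1 and 42.2 CPM (log2 fold change 1.74, SE 0.22, adjusted p = 3.2e-08). Within this family, LPS cells thus had higher Dusp1 and Dusp5 and lower Dusp6 and Dusp7 in each library. Dusp10 had a log2 fold change of 2.97, and Dusp12 one of -1.30 that was not called with DESeq2, without control replicate 1 (-0.99) or without either LPS replicate (-1.17 and -1.54). Of 30 tested genes of cyclic nucleotide signalling, with the Rgs genes counted among them, 7 were up-regulated and 8 down-regulated. Their median log2 fold change was -0.24, or -0.12 without LPS replicate 1. Library-size scaling gave 5 and 10 and a median of -0.67. That majority turned in 6 of the alternatives, among them the fits without the block (7 and 6), without control replicate 1 (7 and 6), without control replicate 2 (6 and 5) and without LPS replicate 2 (7 and 5), but not with library-size scaling. Rgs2 (ENSMUSG00000026360, chromosome 1, 143999338 to 144004161), which switches off G proteins, measured 356, 499.9, 14.6 and 28.3 CPM (log2 fold change -4.35, SE 0.18, adjusted p = 4.3e-20), and its relative Rgs18 measured 27.1, 36.3, 1.45 and 1.94 CPM (log2 fold change -4.21, SE 0.30, adjusted p = 5.5e-14). Both were high in control cells and low in LPS cells, without overlap. Rgs1 went the other way, at 85.1, 108.8, 402 and 693 CPM (log2 fold change 2.47, SE 0.16, adjusted p = 1.2e-14). Rgs10 was down-regulated, with a log2 fold change of -1.21. Pde4b, which degrades cyclic AMP, measured 3.55, 4.11, 55.4 and 54.3 CPM (log2 fold change 3.79, SE 0.24, adjusted p = 6.2e-15). Pde10a, another phosphodiesterase, held 0 and 0 counts in control 1 and 2 and 44 and 55 in LPS 1 and 2, at least 8.87-fold higher in LPS cells (adjusted p = 7.1e-08), and Gucy2c, a guanylate cyclase receptor, held 0 and 0 counts in control 1 and 2 and 42 and 54 in LPS 1 and 2, at least 8.58-fold higher (adjusted p = 9.5e-08). Pde4b was low, and Pde10a and Gucy2c had no count, in the control libraries. Prkar2a, a regulatory subunit of the cyclic AMP-dependent kinase, had a log2 fold change of -1.86.

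Of 29 tested genes of actin and adhesion contacts, 6 were up-regulated and 4 down-regulated, but 3 and 6 with library-size scaling. Their median log2 fold change was 0.11, or -0.31 with that scaling and -0.0051 without LPS replicate 1, but 0.44 without control replicate 2. Vimentin (Vim) measured 763, 949, 2281 and 2423 CPM (log2 fold change 1.47, SE 0.15, adjusted p = 8.3e-10), and gelsolin (Gsn), which severs actin filaments, measured 1100.0, 1132, 588 and 422 CPM (log2 fold change -1.17, SE 0.16, adjusted p = 1.5e-07). Vim was higher and Gsn lower in both LPS libraries, whereas the actin crosslinker gene Actn1 was level at 104, 98.7, 107 and 96.3 CPM. Annexin A2 (Anxa2) and talin 2 (Tln2) had log2 fold changes of 1.46 and -1.38. The other down-regulated members of this list, Asb10 and Rapsn, are also among the silenced genes below. The list was chosen with earlier results of these data known, so its number of down-regulated genes is no independent result. Filamin A (Flna, 895, 742, 1012 and 672 CPM), Tpm1 (122, 128, 131 and 126 CPM) and lamin A (Lmna, 307, 255, 284 and 166 CPM) overlapped between the groups, and Fscn1 held 0, 0, 1 and 0 counts.

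Strongly silenced genes were defined as down-regulated DEGs with at most 3 counts in each LPS library and at least 5 CPM in each control library, and 11 genes met this. Without LPS replicate 1 there were 23. For genes without any count in LPS cells, the fold is a bound with 3 counts per library in place of 0. Ocstamp (ENSMUSG00000027670, chromosome 2, 165393760 to 165400405), which acts in the fusion of macrophages to multinucleated cells, held 24 and 73 counts in control 1 and 2 and 0 and 0 in LPS 1 and 2, at least 21.5-fold lower (adjusted p = 1.9e-09). Kcne3 (ENSMUSG00000035165, chromosome 7, 100176502 to 100184869), an auxiliary subunit of potassium channels, held 19 and 67 counts in control 1 and 2 and 0 and 0 in LPS 1 and 2, at least 18.3-fold lower (adjusted p = 9.8e-09). Both were thus present in each control library and undetected in each LPS library. Lfng (ENSMUSG00000029570, chromosome 5, 140607320 to 140615545), a glycosyltransferase that modifies Notch receptors, held 62 and 147 counts in control 1 and 2 and 2 and 1 in LPS 1 and 2 (ratio of counts 92.0, 95% counting interval 31.1 to 449.7, adjusted p = 5.1e-13). Sardh (ENSMUSG00000009614, chromosome 2, 27188393 to 27248337), the mitochondrial sarcosine dehydrogenase of one-carbon metabolism, held 42 and 56 counts in control 1 and 2 and 3 and 2 in LPS 1 and 2 (ratio of counts 25.9, 95% counting interval 10.7 to 81.5, adjusted p = 4.9e-09). A few reads of both remained in LPS cells. Asb10 (ratio of counts 318, 95% counting interval 56.6 to 12622), Ipcef1 (ratio of counts 152, 95% counting interval 41.6 to 1262) and Rapsn (ratio of counts 202, 95% counting interval 35.7 to 8032) had at most 1 LPS count per library. The histone genes Hist1h3g (ratio of counts 84.8, 95% counting interval 32.7 to 314) and Hist1h2af also met the definition, but members of this family share sequence and their counts are uncertain. The remaining genes were Sapcd2 and ENSMUSG00000091089, which has no symbol in the annotation used. Intervals and floors cover counting error only.

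Genes turned on by the mirrored definition, with at most 3 counts in each control library and at least 5 CPM in each LPS library, numbered 31, and 76 without control replicate 2. Lcn2 (ENSMUSG00000026822, chromosome 2, 32384633 to 32388252), lipocalin 2, which binds bacterial siderophores and so withholds iron, held 2 and 1 counts in control 1 and 2 and 1723 and 2464 in LPS 1 and 2 (ratio of counts 1057, 95% counting interval 361 to 5127, adjusted p = 2.4e-22). Vnn3, a pantetheinase family member, held 1 and 3 counts in control 1 and 2 and 629 and 787 in LPS 1 and 2 (ratio of counts 268, 95% counting interval 104 to 985, adjusted p = 1.5e-19). Adh7, an alcohol dehydrogenase that oxidizes retinol, held 0 and 1 counts in control 1 and 2 and 112 and 280 in LPS 1 and 2 (ratio of counts 297, 95% counting interval 52.97 to 11754, adjusted p = 5.5e-14). These genes went from almost no counts in control cells to clear counts in both LPS libraries. Tnfsf15, a ligand of the tumor necrosis factor family, held 1 and 0 counts in control 1 and 2 and 137 and 202 in LPS 1 and 2 (ratio of counts 257, 95% counting interval 45.8 to 10169, adjusted p = 6.8e-13), and Traf1 and Hrc also belonged here. Zfp811 (0 and 1 counts in control 1 and 2 and 598 and 954 in LPS 1 and 2) has many similar zinc finger genes and Gm13571 (0 and 3 counts in control 1 and 2 and 185 and 302 in LPS 1 and 2) is annotated as antisense, so reads could be shared with other genes and both are uncertain. Edn1, the endothelin-1 precursor, Cfb, complement factor B, and Vcam1, an adhesion molecule, also met the definition and are named after their values were seen. Edn1 held 0 and 1 counts in control 1 and 2 and 65 and 101 in LPS 1 and 2 (ratio of counts 126, 95% counting interval 22.2 to 4995), Cfb held 0 and 0 counts in control 1 and 2 and 81 and 101 in LPS 1 and 2, at least 16.3-fold higher, and Vcam1 held 1 and 1 counts in control 1 and 2 and 52 and 89 in LPS 1 and 2 (ratio of counts 53.4, 95% counting interval 14.5 to 445).

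Genes in none of the lists were taken by size of change among those with at least 50 CPM in the higher group. Among the up-regulated ones, Slamf7, a receptor of leukocytes, measured 2.58, 6.21, 314 and 425 CPM (log2 fold change 6.29, SE 0.22, adjusted p = 4.8e-22). Csf3, which encodes granulocyte colony-stimulating factor, measured 0.323, 0.574, 119 and 65.3 CPM (log2 fold change 7.21, SE 0.32, adjusted p = 1.8e-19), and AA467197 measured 0.323, 0.669, 34.5 and 67.6 CPM (log2 fold change 6.63, SE 0.35, adjusted p = 2.4e-17). Both LPS libraries were far above the control for each. The guanylate-binding proteins Gbp5, Gbp2 and Gbp3, with log2 fold changes of 8.42, 6.27 and 5.57, the schlafen gene Slfn4 (5.91) and Ifi205 (6.45) belong to families of similar genes and are uncertain in the split of their counts. Among the down-regulated ones, Rasgrp3 (ENSMUSG00000071042, chromosome 17, 75435896 to 75529054), an activator of Ras and Rap, measured 237, 300.2, 8.82 and 7.56 CPM (log2 fold change -5.04, SE 0.20, adjusted p = 1.1e-20). Igfbp4, a binding protein of insulin-like growth factors, measured 76.4, 75.6, 4.87 and 0.970 CPM (log2 fold change -4.87, SE 0.29, adjusted p = 1.1e-15), and the transcription factor gene Lyl1 measured 68.7, 58.4, 5.13 and 2.71 CPM (log2 fold change -4.07, SE 0.24, adjusted p = 5.1e-16). LPS libraries were low for all of these. Klhl6 and Arhgap19 had log2 fold changes of -4.0 and -3.88, and 2310002L09Rik one of -3.85. The linker histone genes Hist1h1b (-5.88) and Hist1h1d (-4.0), Hist1h4f (-3.85) and the variant histone gene H2afx (-3.69) were down-regulated too, of which the first 3 are members of clusters of similar genes.

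Promoters of 300 bases around each start (250 before and 50 after, RefSeq, GRCm38.p6) were searched for short letter strings on both strands, over 1486 promoters of 1146 up-regulated genes, 1581 promoters of 1222 down-regulated genes and 11331 promoters of 8883 tested genes. The core of the interferon-stimulated response element, GAAANNGAA, stood in 13.2% of the promoters of up-regulated genes, 6.83% of those of down-regulated genes, 7.47% of those of tested genes and 8.56% of all 32851 promoters in the table. For NF-kB, GGANTTTCC, the shares were 2.69%, 1.20%, 1.38% and 1.25%, in the same order. For AP-1, TGACTCA, they were 6.93%, 3.29%, 3.80% and 5.20%. For E2F, TTTCCCGC or TTTGGCGC, they were 1.48%, 4.36%, 2.99% and 1.56%. For the cell cycle homology region, TTTGAA, they were 12.6%, 16.1%, 12.2% and 17.9%, and for the antioxidant response element, TGACNNNGC, they were 14.9%, 14.5%, 14.5% and 12.4%. The strings for interferon response, NF-kB and AP-1 were thus more frequent among up-regulated genes, and that for E2F among down-regulated genes, as a count of letters without a test. TGACTCA followed by GC is counted under both the AP-1 and the antioxidant strings.

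Each group held 2 libraries of different depth, so values of a few CPM in control 1 rest on few counts. Of the 3282 DEGs, 8 had opposite directions in the 2 lanes.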

How the data were processed

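According to the labels and methods of the study, the authors mapped single-end reads to the mouse genome GRCm38 and deposited raw counts of reads per Ensembl gene from featureCounts, without normalization. The strandedness of counting and the handling of multimapping reads are not given in the sources used here. Of 46078 genes, 45229 were matched by identifier to GENCODE M21 for symbols and positions. Members and gene lists were chosen with earlier results of these data known. The 4 libraries were fitted with edgeR 4.0.16 in R 4.3.3, with filterByExpr, TMM scaling, the replicate number as a block and the two-sided quasi-likelihood F-test, adjusted by Benjamini-Hochberg over 12888 genes. The residual degrees of freedom were 1 and the prior ones 32.3. The fold changes and adjusted p-values printed come from this fit. The SE printed is the absolute log2 fold change divided by the square root of the F statistic. DEGs had a log2 fold change of at least 1 in either direction and an adjusted p below 0.05. The labels name the lane and run of each library, which is the source of the pairing, and the difference between replicates correlated between the groups across genes, which are not independent replicates, with r = 0.398. Between replicates of a group, chi-square per degree of freedom was 11.9 (control) and 41.3 (LPS).

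Named genes were the preselected genes of 29 lists, up to 3 DEGs of each list (28, without inflammatory genes) and direction with the largest change at 5 CPM or more and the same direction in both lanes, genes near 0 (up to 8 per direction by level), the 10 largest unlisted DEGs per direction at 50 CPM or more, and cell type markers, of which a few are not given in the text. Pfkp, Dusp5, Rgs1 and Rgs10 were named outside these rules, after their values were seen. Lists were described by counts and medians, without set tests. Counting intervals are exact 95% intervals of the ratio of counts. Alternatives were no block, all 8 libraries in 1 fit, DESeq2 1.42.0, RLE size factors, library-size scaling, other count filters, no fold minimum, libraries thinned to 2707500 counts, other count limits near 0, and each library left out of a fit of all 8. The fit was tested on simulated data. Summaries and plots were made in Python 3.11.15 with matplotlib 3.10.9.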

Additional observations from a re-analysis of the deposited data

How the results depend on the processing

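In every alternative, no DEG was called in the opposite direction. Of 237 genes tested and selected for naming, 188 were DEGs, and 156 of these kept their call under every alternative that tested them. The call was lost by 12 with library-size scaling, 8 with DESeq2, 2 with thinned libraries, 1 without the block, 0 with RLE size factors, and by 7, 17, 7 and 16 without control replicate 1, control replicate 2, LPS replicate 1 and LPS replicate 2. The fit lacking the replicate block called 2918 DEGs, 1485 of them up and 1433 down. Dropping the fold minimum gave 6163 (3212 up and 2951 down), since that setting admits smaller changes. Library-size scaling gave 986 up-regulated and 2938 down-regulated DEGs. It leaves out the TMM factors, which were 1.148 and 1.166 in control 1 and 2 and 0.8725 and 0.8562 in LPS 1 and 2. Why these factors differed between the groups was not tested. With 1 library left out, down-regulated DEGs ranged from 1054 (without control replicate 2) to 1449, silenced genes from 11 to 23 (without LPS replicate 1) and turned-on genes from 32 to 76 (without control replicate 2). These fits kept the block and held the other 7 of the 8 libraries, and all 8 in 1 fit gave 1582 down-regulated DEGs. Silenced genes numbered 86 with thinned libraries, where lower depth puts more genes under 3 counts, 7 with at most 1 count and 58 with at most 10 counts, beside 11. Turned-on genes numbered 47, 22 and 63 in the same settings, beside 31. A minimum of 10 counts in every library could give no number of genes near 0. Depth limits low genes most in control 1.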
